A study of Mus musculus with 8 samples.

Results

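The miRNAs described here are the 5p arms of mouse miRNAs numbered miR-6896 to miR-7093, the strands cut from the left side of their hairpins. They were chosen by name, from the mouse miRNA rows of the array, by a rule that used no signals. The choice was made with earlier results of these data known. There were 196 of these 5p arms among the 1881 mouse miRNAs on the array, and the 194 3p arms with the same numbers served as the comparison. Names with a letter after the number were left out by the choice (miR-6973a, miR-6973b, miR-7036a and miR-7036b, with 4 5p and 4 3p arms) and stand among the other miRNAs. Serum RNA came from 4 non-irradiated mice (0 Gy) and 4 X-irradiated mice (7 Gy), with 1 array per serum. All were male C57BL/6NJcl mice, 8 weeks old at irradiation, and carried no genetic change that the labels or the methods name. The irradiated sera were taken at 72 h, whereas no sampling time is named for the non-irradiated sera, and 30 ng of RNA of each serum was labelled with Cy3. The question was which serum miRNAs differ after a dose that causes a strong acute radiation syndrome. The p-values measure the spread between these 8 arrays, and their number limits the precision.

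Most miRNAs are cut from long transcripts by the nuclear enzyme Drosha and then by Dicer. A mirtron bypasses Drosha: its hairpin is a short intron that the spliceosome removes, so that an end of the hairpin is a splice site, and introns as a rule begin with GU and end with AG. In mirtron hairpins of mammals the 5p arm is often rich in G and the 3p arm in C and U. In serum, miRNAs lie outside cells, in vesicles or bound to proteins, and which of those arms is found there is not given by the gene.

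Sequences from RefSeq (assembly GRCm38.p6) were found for 172 of the 196 5p arms. The hairpin of miR-7082, whose 5p arm is named in the study, shows the build of such a miRNA, with its 5p arm in capitals. It has 92 bases, lies within the span of Raver1, which encodes an RNA-binding protein, at chr9:21075497-21075588 on the minus strand, and its last 2 letters are AG.

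miR-7082 hairpin: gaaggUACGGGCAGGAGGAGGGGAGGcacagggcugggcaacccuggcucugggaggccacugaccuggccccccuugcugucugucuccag

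The mature 5p arms on which the results below turn follow, 5′ to 3′, with the seed (bases 2 to 8, which pair with target messages) in capitals.

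miR-7047-5p: uGAGGGAGgagggcugggucuga
miR-6937-5p: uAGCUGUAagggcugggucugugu
miR-6931-5p: uGGGGUGGggagugggggacu
miR-7082-5p: uACGGGCAggaggaggggagg
miR-7045-5p: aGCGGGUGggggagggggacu
miR-7088-5p: gCAAGUGGuggugaggaggggaaac
miR-6995-5p: cUGGGAGUagaagggggaaacca
miR-6965-5p: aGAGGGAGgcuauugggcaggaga
miR-6969-5p: cAGCAGAGuagggagcaaaaga
miR-7081-5p: aGAGGAGGgugcucggccggggauua

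The label of short-intron miRNAs was checked on these sequences. Of 167 hairpins with a sequence, 156 ended in AG (93.4%), against 70 of 760 other mouse hairpins on the array (9.21%). The first letters were GU in only 25 of the 167 (15.0%), and the hairpin of miR-7082 starts with other letters. The mature 5p arms began with GU in 14 of 172 (8.14%), against 3.48% of other miRNAs. They began with U after a G of the hairpin in 29 (16.9%), against 9.24%. The AG end was thus common in these hairpins and the GU start was not, but the GU starts of the other hairpins were not counted. The median hairpin length was 66 bases (range 52 to 137), against 82 bases in the others. All 172 5p arms with a sequence lay within the span of a protein-coding gene on 19 chromosomes, against 445 of 760 other hairpins (58.6%). Introns and the gene's strand were not read, so that these values describe the ends and places of the hairpins and do not show splicing.

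The 5p arms were rich in G and the 3p arms poor in it. G made up a median of 43.5% of the bases of the 5p arms (at most 66.7%), 14.3% of those of the 3p arms and 26.1% of those of other miRNAs. A run of at least GGG was present in 129 of the 172 5p arms, against 4.12% of the 3p arms and 27.9% of the others. The 3p arms ended in AG in 134 of 170 cases (78.8%), against 8.61% of other miRNAs. The 172 5p arms held 151 different seeds, so that most stand alone. There were 18 seeds shared by 39 of them, among them GAGGGAG of miR-6965-5p and miR-7047-5p, GUGGGAG of miR-6922-5p, miR-6993-5p and miR-7008-5p, and GGGCUGA of miR-6911-5p, miR-7028-5p and miR-7079-5p. Of these 3 groups, only miR-6965-5p and miR-7047-5p were detected on all 8 arrays. Other shared seeds also held an arm detected on all 8, among them GGGGAGG with miR-7075-5p and AGGGAGG with miR-7016-5p.

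The labelled material was checked with miRNAs known from blood. The red cell miRNAs miR-451a and miR-486a-5p and the myeloid miR-223-3p were called detected on all 8 arrays, and let-7b-5p on 7. The red cell miR-16-5p, the liver miR-122-5p and the leukocyte miR-142a-3p were detected on 5. For each of these, the 5 were all non-irradiated arrays and 7 Gy replicate 2, with no call on 7 Gy replicates 1, 3 and 4. The arrays differed in strength. The labelling spike-ins, control RNAs added before labelling, had a log10 signal between 2.73 and 3.68 at 0 Gy and between 1.95 and 3.35 at 7 Gy, and 7 Gy replicates 1, 3 and 4 were outside the accepted range of the software. Scaling the arrays so that their 90th percentiles over the mouse miRNAs were equal multiplied the signals by 0.379 to 1.06 on 6 arrays and by 4.33 and 4.63 on 7 Gy replicates 1 and 3. On the slide, columns 1 and 2 held all non-irradiated sera and columns 3 and 4 all irradiated ones, so that dose and column cannot be told apart, while each of the 2 rows held both doses.

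More 5p than 3p arms of these hairpins were detected in serum. Of the 196 5p arms, 52 (26.5%) were called detected on all 8 arrays, 68 on 1 to 7 arrays and 76 (38.8%) on none. Of the 194 3p arms, 11 (5.67%) were detected on all 8 arrays and 143 (73.7%) on none. For the other 1491 mouse miRNAs the numbers were 248 (16.6%) and 858 (57.5%). Set arm against arm, the 5p arm was detected on more arrays in 98 of 194 pairs, the 3p arm in 30, and both on the same number in 66, of which 60 had neither arm detected. The 5p and 3p arms differ in their probes and base content, whose part in this difference was not tested.

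Detection calls were given to 84, 89, 77 and 80 of the 5p arms at 0 Gy and to 59, 109, 64 and 106 at 7 Gy, here and below in the order of replicates 1 to 4. The irradiated arrays lay on both sides of the non-irradiated ones, with replicates 2 and 4 above and 1 and 3 below all of them. The mean was 82.5 ± 5.20 (SD, n = 4) at 0 Gy, against 84.5 ± 26.7 (SD, n = 4) at 7 Gy, and no test was run on a number over the 5p arms. The difference of the means was −2.5 in slide row 1 and 6.5 in slide row 2. Replicates 2 and 4 of 7 Gy also held the arms seen nowhere else: 8 were detected on replicate 2 alone, 5 on replicate 4 alone and 8 on both and no other array, against 1 on 0 Gy replicate 2 alone. 7 Gy replicate 2 also had the most detected miRNAs of any array (687). The same counts were not made over all miRNAs, so that they do not set the 5p arms apart. The number of 3p arms detected was 13, 15, 43 and 34 at 0 Gy, against 33, 26, 32 and 46 at 7 Gy.

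The count of detected 5p arms moved with that of all detected miRNAs, which was 603, 600, 531 and 541 at 0 Gy, against 379, 687, 378 and 567 at 7 Gy. As a share of all detected miRNAs, the 5p arms made up 13.9%, 14.8%, 14.5% and 14.8% at 0 Gy, against 15.6%, 15.9%, 16.9% and 18.7% at 7 Gy, whereas they are 10.4% of the miRNAs on the array. The groups did not overlap in this share, with a mean of 14.5% ± 0.415 (SD, n = 4) at 0 Gy, against 16.8% ± 1.41 (SD, n = 4) at 7 Gy. The share of the 3p arms also had a higher mean at 7 Gy. It was 4.76% ± 2.91 (SD, n = 4) at 0 Gy, against 7.27% ± 2.33 (SD, n = 4) at 7 Gy, with overlapping groups. These shares do not depend on the scaling, but the labelling spike-ins, the slide column and the number of detected miRNAs also differed between arrays, and their part was not tested.

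**Figure D1:**
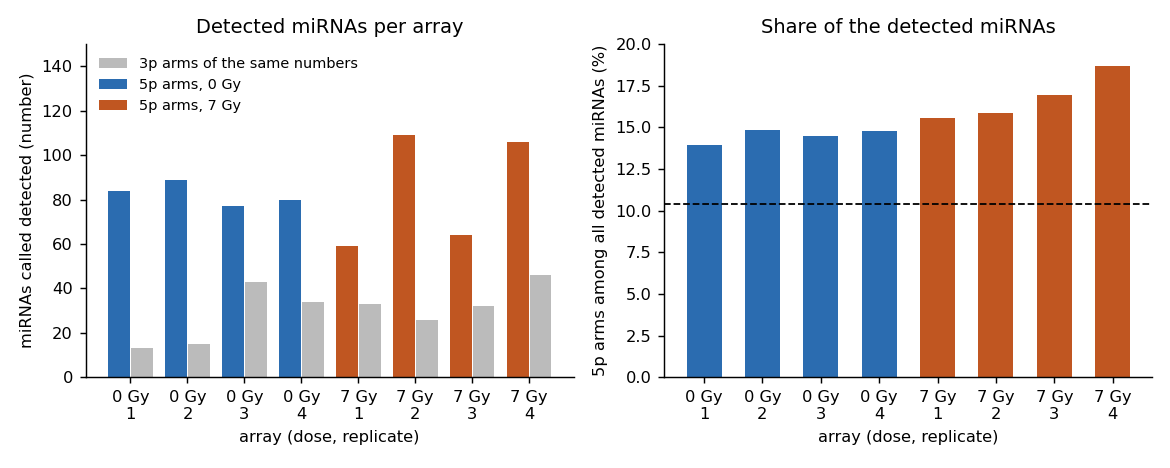
Left, number of miRNAs called detected on each of the 8 arrays (y axis) for the 5p arms of miR-6896 to miR-7093 (blue at 0 Gy, orange at 7 Gy) and for their 3p arms (grey). Right, 5p arms as a percentage of all detected miRNAs on the same arrays, with their share of the array (10.4%) as a dashed line. The 0 Gy arrays lie between 13.9% and 14.8% and the 7 Gy arrays between 15.6% and 18.7%.

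The 5p arms held 2.21%, 3.69%, 8.13% and 7.84% of the summed signal of all mouse miRNAs at 0 Gy, against 11.01%, 5.02%, 13.05% and 15.6% at 7 Gy. The groups overlapped through 7 Gy replicate 2, which lay below 0 Gy replicates 3 and 4. The red cell miRNA miR-451a alone held 39.7%, 31.4%, 1.81% and 5.29% of the summed signal at 0 Gy, against 16.2% on 7 Gy replicate 2 and under 0.06% on the other irradiated arrays. With miR-451a taken out of the sum, the share of the 5p arms was 3.66%, 5.39%, 8.28% and 8.28% at 0 Gy, against 11.02%, 5.98%, 13.05% and 15.6% at 7 Gy. The groups still overlapped through 7 Gy replicate 2. The 3p arms held at most 0.393% of the summed signal on any array.

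Of the signal of the 5p arms, miR-7047-5p and miR-6937-5p together gave between 35.1% and 53.0% at 0 Gy and between 20.1% and 45.2% at 7 Gy. They lie on different chromosomes and have different seeds, but they share 13 bases in a row, shown here in capitals, which no other of the 1608 miRNAs of the array with a sequence held.

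miR-6937-5p: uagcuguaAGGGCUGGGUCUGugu
miR-7047-5p: ugagggaggAGGGCUGGGUCUGa

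The signals of these 2 arms moved together from array to array: the SD of the log2 ratio between them over the 8 arrays was 0.074, the smallest among the 1081 pairs of 5p arms that were detected on all 8 arrays and had a sequence (median 0.685). The next smallest, 0.0855 for miR-6965-5p and miR-7070-5p, came from a pair that shares a run of 7 bases, and the 18 pairs that share 9 to 12 bases had a median of 0.514. The pair was singled out after its values were seen. The 2 probes of miR-6937-5p differed 28.8-fold in mean spot signal, the most among the 5p arms detected on all 8 arrays (median 1.60-fold). Those of miR-6942-5p, also detected on all 8, differed 24.6-fold. The part of the shared bases in the signal of miR-6937-5p was not tested.

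The comparison of the doses took each signal after scaling, set values under 100 to 100, and took log2. A miRNA was tested if it was detected on at least 3 arrays and above this floor on at least 1. This left 29 of the 196 5p arms. Another 65 were detected on at least 3 arrays but lay at the floor on all 8, 26 were detected on 1 or 2 arrays and 76 on none. All 29 tested arms were detected on all 8 arrays. No 3p arm was tested, since the highest scaled signal of any of them on any array was 45.6.

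None of the 29 tested 5p arms was higher and none was lower at 7 Gy (limma with Benjamini-Hochberg adjustment over 208 tested miRNAs, adjusted p from 0.0601 to 0.764), where over all tested miRNAs 1.92% were called higher and 1.92% lower. At an unadjusted p under 0.05, 10 5p arms were higher and 0 lower, against 22.1% higher and 7.69% lower among all tested miRNAs. Fold changes on the log2 scale were above 0 in 28 of 29 5p arms and below 0 in 1, against 124 above and 84 below among the 208. The median was 0.49, against 0.17 over all tested miRNAs and 0.053 over the other 179 tested miRNAs, which include the lettered miR-6973b-5p (1.32) and miR-7036a-5p (0.25). Without 7 Gy replicate 2, 12 of the 29 were called higher and 0 lower (limma, adjusted p), against 26.9% higher and 6.73% lower among all tested miRNAs. The irradiated arrays left in that fit all had labelling spike-ins out of range, and the non-irradiated ones all had them in range. Dose and labelling therefore cannot be told apart there. A fit blocked on slide row called 5 higher and 0 lower, against 8.65% higher and 3.85% lower among all tested. Of the 29, 11 lay at the floor on all 4 non-irradiated arrays and could therefore show no fall.

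The size of this shift changed with the floor and with the scaling. Without the floor, the median log2 difference of the 52 5p arms detected on all 8 arrays was 1.08, and that of all 311 miRNAs detected on all 8 arrays was 1.10. Without scaling the medians were −0.18 and −0.16, and 19 of the 52 lay above 0. The size of the difference thus changed with the scaling by over 1 on the log2 scale, while in these values the 5p arms lay close to the other miRNAs measured on every array. Within slide row 1 the median of the 29 tested arms was 0.31 (0.086 over all tested miRNAs), and within slide row 2 it was 0.66 (0.14 over all tested).

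**Figure D2:**
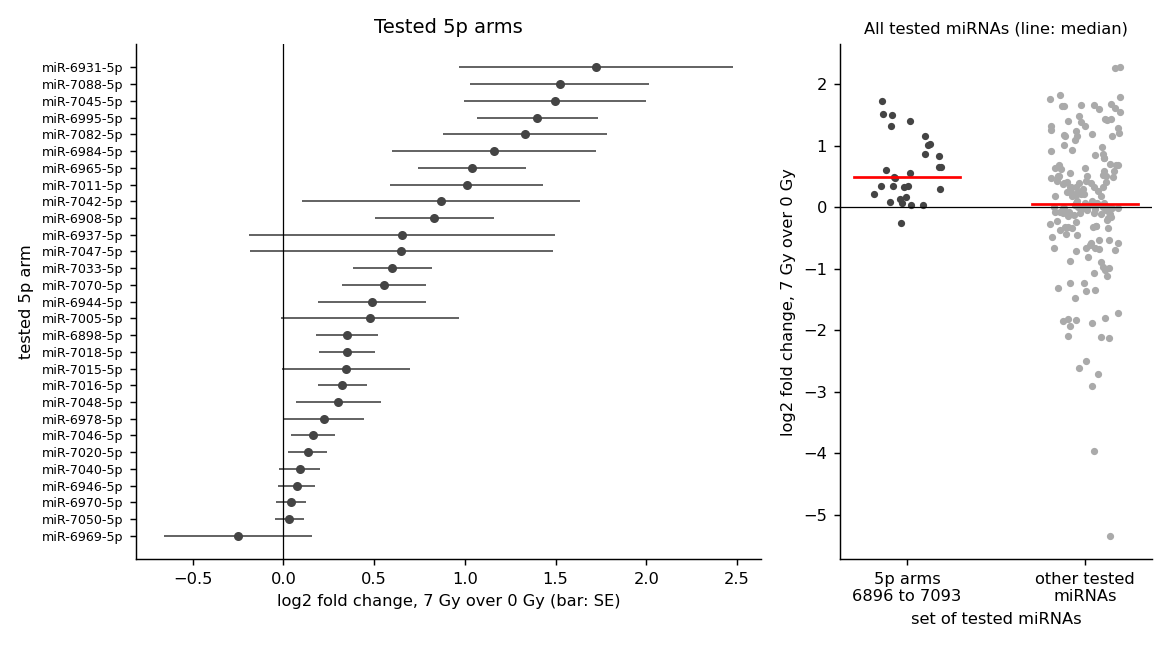
Left, log2 fold change (7 Gy over 0 Gy, x axis) of each of the 29 tested 5p arms with its standard error from limma as a bar. Right, the same log2 fold changes (y axis) for these arms and for the 179 other tested miRNAs, 1 point per miRNA, with the medians of 0.49 and 0.053 as red lines. The 5p arms span −0.25 to 1.72.

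The lowest adjusted p belonged to miR-6995-5p, which lies within the span of Sh3pxd2a, a gene for a scaffold protein of podosomes, at chr19:47273562-47273584. Its scaled signal was 73.1, 117, 139 and 112 at 0 Gy, against 410, 151, 379.5 and 375 at 7 Gy. Every irradiated array exceeded every non-irradiated one, with 7 Gy replicate 2 closest to them. It was the only tested 5p arm whose groups did not overlap, where among all tested miRNAs 6.73% lay higher and 5.29% lower without overlap. This is a log2 fold change of 1.40 with a standard error (SE) of 0.33 (adjusted p = 0.0601, limma). A two-sided exact permutation test over the arrays gave p = 0.0286, the smallest that 4 against 4 arrays allow. Groups without overlap always give this value, so that it adds nothing to the order of the arrays, and it was not adjusted for the 29 tested arms. Before scaling the log2 difference was 0.25. Read without the floor, 5 of the 29 tested arms lay higher without overlap and 0 lower, where among all tested miRNAs 13.0% lay higher and 9.13% lower. These were miR-6970-5p, miR-6995-5p, miR-7033-5p, miR-7046-5p and miR-7070-5p. All of them but miR-6995-5p lay at the floor on every non-irradiated array. They therefore entered the test through irradiated arrays alone, so that the filter itself favoured a rise among them.

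miR-6965-5p, within the span of Ccnf, which encodes cyclin F, had a scaled signal of 57.0, 61.7, 130 and 103 at 0 Gy, against 226, 128, 231 and 354 at 7 Gy. Its groups met at 0 Gy replicate 3 and 7 Gy replicate 2. They differed by a log2 fold change of 1.04 (SE 0.30, adjusted p = 0.0977 with limma), and 0.15 before scaling.

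miR-7082-5p was measured at 248, 398, 565 and 624 at 0 Gy and at 1145, 506, 1442 and 1667 at 7 Gy. Irradiated replicates 1, 3 and 4 lay above all non-irradiated arrays, and replicate 2 lay among them. In limma this gave a log2 fold change of 1.33 (SE 0.45, adjusted p = 0.117), with 1.28 in slide row 1 and 1.38 in slide row 2. Before scaling, the log2 difference was 0.070. Its 3p arm was detected on 1 array.

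miR-7045-5p and miR-7088-5p showed the order of arrays seen in miR-7082-5p. miR-7045-5p lies within the span of Chd4, which encodes a chromatin remodeller, and measured 174, 204, 351 and 369 at 0 Gy, against 738, 294, 1150 and 1179 at 7 Gy. miR-7088-5p lies within the span of Mst1, which encodes a growth factor-like protein made in liver, and measured 102, 132, 216 and 232 at 0 Gy, against 438, 208, 543 and 929 at 7 Gy. In both, 7 Gy replicate 2 lay within the 0 Gy range and the other irradiated arrays above it. For miR-7045-5p limma gave a log2 fold change of 1.498 (SE 0.50) and for miR-7088-5p one of 1.52 (SE 0.49), both at an adjusted p of 0.117. With only the 5 arrays whose labelling spike-ins were in range, which leaves 7 Gy replicate 2 as the sole irradiated array (assumed to vary like the others), no 5p arm passed the test and the median of the 18 arms then tested was −0.078.

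The largest fold change among the tested arms was that of miR-6931-5p, within the span of Dcakd, at 190, 282, 660 and 401 at 0 Gy, against 1475, 323, 3621 and 976 at 7 Gy. The irradiated arrays spread more widely than the non-irradiated ones, and replicate 2 lay within the 0 Gy range. Its log2 fold change of 1.72 had a standard error of 0.75 (adjusted p = 0.182, limma).

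miR-7047-5p had the highest mean array signal of the 5p arms, which is not a measure of its amount against other miRNAs, since probes differ. Its scaled signal was 1236, 1203, 4870 and 2640 at 0 Gy, against 5055, 686, 7465 and 4468 at 7 Gy. The lowest and the highest array were both irradiated, and the groups overlapped over most of their range. This amounts to a log2 fold change of 0.65 (SE 0.84, adjusted p = 0.616, limma), and to −0.61 before scaling. miR-6937-5p, within the span of Adi1, ran in parallel at 0.65 (SE 0.84, adjusted p = 0.616, limma).

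These arms were followed by others with a high mean signal: miR-6984-5p had a log2 fold change of 1.16, miR-7011-5p of 1.01, miR-7042-5p of 0.87 and miR-7005-5p of 0.48, with adjusted p from 0.162 to 0.540 (limma). For miR-7042-5p the irradiated values ran from 31.6 on replicate 2 to 687 on replicate 4, and the non-irradiated ones from 35.6 on replicate 1 to 397 on replicate 3. The 4 further arms, miR-6908-5p, miR-7016-5p, miR-7033-5p and miR-7070-5p, had an unadjusted p under 0.05, log2 fold changes between 0.33 and 0.83 and adjusted p from 0.129 to 0.162 (limma), and 7 Gy replicate 2 lay at the floor in all of them. miR-7016-5p, miR-7033-5p and miR-7070-5p lay at the floor on all 4 non-irradiated arrays, so that the floor set their level there.

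The 5p arm with a log2 fold change below 0 was miR-6969-5p, within the span of Clps, which encodes the pancreatic lipase cofactor colipase, at chr17:28558475-28558496. It measured 44.2, 95.7, 309 and 103 at 0 Gy, against 71.9, 26.3, 96.4 and 159 at 7 Gy. The groups overlapped widely, and 0 Gy replicate 3 stood above the rest. Its log2 fold change was −0.25 (SE 0.41, adjusted p = 0.678, limma), and it was 0.15 without 0 Gy replicate 3. The next in order were miR-7050-5p (0.033), miR-6970-5p (0.041) and miR-6946-5p (0.072), each at the floor on all 4 non-irradiated and on 3 irradiated arrays.

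**Figure D3:**
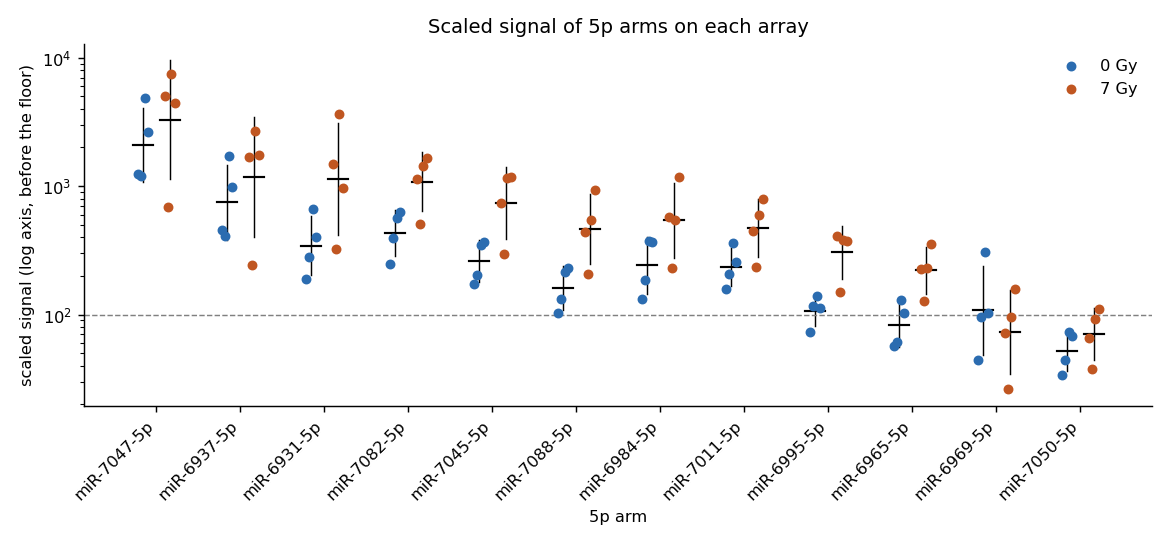
Scaled signal before the floor (y axis, log scale) of 12 5p arms on the 4 arrays of 0 Gy (blue) and the 4 arrays of 7 Gy (orange), 1 point per array, with the mean and SD on the log2 scale as black lines and the floor of 100 dashed. The irradiated mean lies higher in all of them but miR-6969-5p, and the arrays of both doses overlap in all of them but miR-6995-5p.

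Arms under the floor were described by their detection calls. miR-7081-5p, within the span of Dnmt1, which encodes the maintenance DNA methyltransferase, was detected on 0 of 4 non-irradiated and 4 of 4 irradiated arrays. Its signals before scaling were 1.93, 3.78, 2.66 and 4.17 at 7 Gy. miR-7039-5p, within the span of Smurf1, which encodes a ubiquitin ligase, was detected on 1 non-irradiated and 4 irradiated arrays, with signals before scaling of 5.43 on 0 Gy replicate 2 and 6.52, 24.9, 2.96 and 17.4 at 7 Gy. miR-6964-5p, within the span of C2cd2, was detected on 4 non-irradiated and 1 irradiated array, at 23.4, 47.9, 8.38 and 6.52 at 0 Gy, against 13.4 on 7 Gy replicate 2. These 3 were the only 5p arms detected on all arrays of 1 dose and on at most 1 of the other, and none of their 3p arms was detected on any array. The same count was not made over all miRNAs of the array, so that it does not set the 5p arms apart. Signals of this size are near the limit of detection and were not tested.

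The 5p arms detected on every array held more G than those detected on none. The median share of G was 47.8% in the arms detected on all 8 arrays, 46.2% in those detected on 1 to 7 and 40.9% in those detected on none, and 52.3% in the 26 tested arms with a sequence. Detection on all 8 arrays was found for 0 of 8 arms with under 30% G, 9 of 47 with 30% to 40%, 15 of 65 with 40% to 50%, 17 of 45 with 50% to 60% and 6 of 7 with 60% or more. The other miRNAs of the array showed the same order, with 78 of 785, 37 of 282, 50 of 134, 35 of 56 and 8 of 9. Between 40% and 60% G, the share detected on every array was lower in the 5p arms than in the other miRNAs (23.1% against 37.3%, then 37.8% against 62.5%). From 30% to 40% G it was higher in the 5p arms (19.1% against 13.1%). It was 0% against 9.94% under 30% G, and 85.7% against 88.9% at 60% or more. These shares are descriptions over miRNAs of the same 8 arrays, without a test.

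**Figure D4:**
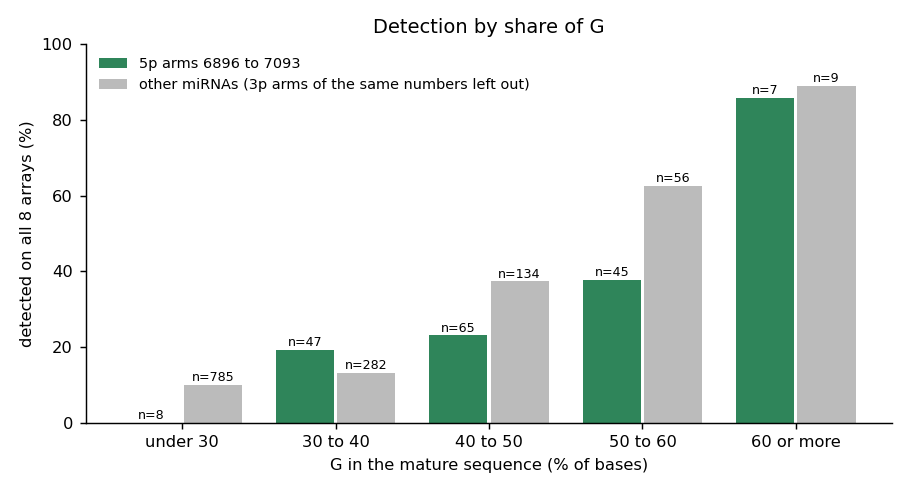
Percentage of miRNAs called detected on all 8 arrays (y axis) by the share of G in the mature sequence (x axis), for the 5p arms of miR-6896 to miR-7093 (green) and for other miRNAs without the 3p arms of the same numbers (grey), with the number of miRNAs above each bar. The green bars go from 0 of 8 arms under 30% G to 6 of 7 arms with 60% or more.

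The mouse miRNAs first described as mirtrons lie outside this range of numbers and gave a mixed picture. miR-1224-5p was tested, with a log2 difference of −0.00082 between the doses (adjusted p = 0.999, limma), with a scaled signal between 673 and 3097 at 0 Gy and between 983 and 2525 at 7 Gy. Its 3p arm was detected on no array. miR-877-5p, miR-877-3p and miR-702-3p were detected on all 8 arrays and lay under the floor on all of them, and miR-702-5p was detected on none. In miR-877 both arms, and in miR-702 the 3p arm, were thus the detected ones, whereas miR-1224 showed the 5p arm alone.

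Among the tested 5p arms, probes of the same arm gave like differences. Of the 196 arms, 186 had 2 probes and 10 had 3. In the 29 tested arms the log2 differences of the probes of 1 arm lay a median of 0.078 and at most 0.51 apart, and none differed in sign. This did not hold for every arm under the floor: the probes of miR-6991-5p gave −1.38 and 0.71.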

How the data were processed

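Serum RNA of 4 mice per dose was labelled with 1 dye, and the authors hybridised it to 8 Agilent mouse miRNA arrays on a single slide, scanned once. The deposited intensity values come from Agilent Feature Extraction, which subtracted the background, summed each miRNA's probes and wrote 0.1 where it made no detection call. The authors deposited them without normalization between arrays. The software version is 11.5 in the submitters' processing notes and differs from that in the paper's methods. Detection flags and spot signals were read from the same scans.

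The 5p arms were taken by name. These miRNAs, the lists and the alternatives were chosen with earlier results of these data known. The 90th percentiles of the arrays over 1881 mouse miRNAs were set equal, as in the study's methods, and their lower limit of 100 was read as a floor. The groups were compared with limma 3.58.1 in R 4.3.3 on log2 values with no covariate, adjusted (Benjamini-Hochberg) over 208 miRNAs. The fit was tried on simulated data. Unlike the real values, these had no floor, the same spread in all miRNAs and planted changes larger than those of the tested 5p arms. For single arms, a two-sided exact permutation test ran over the 70 arrangements of the arrays. No set of miRNAs was given a p-value.

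Named arms were those passing the test (none did), miR-7082-5p, which the study names, the 12 with the highest mean scaled signal, the 10 with the smallest unadjusted p, the 4 with the most negative log2 fold change, and those detected on all 4 arrays of 1 dose and at most 1 of the other. Sequences and gene spans came from RefSeq tables (GRCm38.p6), which held none for 24 of the 196 arms. Alternatives were other percentiles, no scaling, scaling to spike-ins or by quantiles, lower floors or none, spot signals, normexp (offset 50, on median spot signals), filters on detection, the methods' t-test, a variance trend, replicate and slide row blocks, the labelling spike-ins as a covariate and leaving out each array. Fitting only arrays with in-range labelling spike-ins, and reading overlap without the floor, were chosen after seeing the data. Plots were made in Python 3.11.15 with matplotlib 3.10.9.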

Additional observations from a re-analysis of the deposited data

Results flagged for a closer look

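In 3 of 46 groups of 4 arrays looked at, 1 array stood apart from the other three, with a gap to its nearest neighbour above Dixon's critical share of the group's range. Chance alone flags about 1 in 20 groups. The array was 7 Gy replicate 2 each time, and it was the lowest of its group. The gap was 0.911 of the range for miR-6995-5p, 0.859 for miR-7042-5p and 0.846 for miR-7016-5p, on the log2 scale of the scaled signal without the floor. The labelling spike-ins of this array, alone among the irradiated ones, were in range, and their part in the gap was not tested.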

How the results depend on the processing

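No 5p arm was called lower in any setting except with mean spot signals, which called 1 lower (2.37% of all tested) and 2 higher (0.474%). The number called higher was 0 in most settings. Beside each, the share of all miRNAs tested in that setting and called higher is given in parentheses. It was 1 with the 75th percentile (3.43%) and 1 with the 90th percentile (3.02%) of miRNAs detected on all arrays, 1 with no floor (0.316%), 1 with normexp background correction (0.948%), 5 with a block on slide row (8.65%; miR-6965-5p, miR-6995-5p, miR-7045-5p, miR-7082-5p and miR-7088-5p) and 6 by the methods' t-test without adjustment (16.3%), with 0 after adjustment. Leaving out 1 array gave 0 to 12, with 12 only without 7 Gy replicate 2 (26.9%). In that fit all irradiated arrays left had labelling spike-ins out of range. Read without the floor, 5 tested arms in place of 1 lay higher without overlap (13.0% of all tested, in place of 6.73%). The arms added in this way had entered the test through irradiated arrays alone. The median log2 fold change was 1.02 with no floor (0.65 over all miRNAs then tested), 0.99 with mean spot signals (0.73), 0.048 with the labelling spike-in covariate (0.0061), −0.078 on the 5 arrays whose spike-ins for labelling were in range (−0.095), 0.14 with no scaling (−0.091), 0.16 with the 75th percentile (−0.12) and 0.24 with the 90th percentile (−0.062) of miRNAs detected on all arrays, and 0.16 with normexp (0.094). It ranged from 0.36 to 0.74 when 1 array was left out. The difference in the number of detected arms, 2 in the main setting, was 26.5 on those 5 arrays and −6.17 to 10.5 when 1 array was left out. With the replicate number as a block the calls stayed at 0 higher and 0 lower, with a median of 0.49. The numbers were not taken to pair the samples: deviations from the group means correlated at −0.34, 0.43, 0.55 and 0.42 between same-numbered arrays, 1 of them below 0, and from −0.72 to 0.71 between differently numbered ones.

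Among 484 values of the 20 named tested arms, 444 kept their direction and their side of the threshold, 19 passed it and 21 changed direction. Direction changed with no scaling for miR-6937-5p (−0.61), miR-7047-5p (−0.61), miR-7011-5p (−0.25), miR-7042-5p (−0.10) and miR-6984-5p (−0.099). With the 75th percentile it changed for miR-6937-5p (−0.063) and miR-7047-5p (−0.069). With the labelling spike-in covariate it changed for miR-6937-5p (−1.40), miR-7047-5p (−1.38), miR-7042-5p (−0.84), miR-7005-5p (−0.65), miR-6984-5p (−0.032) and miR-7011-5p (−0.0036). On the 5 arrays with in-range labelling spike-ins it changed for miR-6937-5p (−1.62), miR-7047-5p (−1.61), miR-7042-5p (−0.96), miR-7005-5p (−0.41), miR-6908-5p (−0.10), miR-6931-5p (−0.095) and miR-6984-5p (−0.061). Leaving out 1 array moved miR-6969-5p between −0.42 and 0.15, with 0.15 only without 0 Gy replicate 3. The cause of these changes was not tested. The methods' t-test leaves the median as it is and has no value of its own for it. Low signal limits the comparison: 65 arms detected on at least 3 arrays lay under the floor and were seen only in their detection calls.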
